A study of Homo sapiens with 14 samples.

Results

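The response of CWR22RV1 cells to Fucotrim II was described across the genome from 5 of the 14 libraries of the series, 2 from cells kept for 72 h in 60 μM Fucotrim II and 3 from cells kept for 72 h in DMSO, the vehicle of the inhibitors. The libraries were chosen by their treatment labels. CWR22RV1 is a human prostate cancer line, so each group samples 1 line, with no normal prostate cells beside it. The labels call the libraries biological replicates, and the study's methods state 3 repeats of each condition, and 2 Fucotrim II libraries were at hand. The other libraries of the series came from cells given Fucotrim I (3), SGN-2FF (3) or P-SiaFNEtoc (3).

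Fucose reaches glycoproteins as GDP-fucose, most of which is made de novo from GDP-mannose by GMDS, a dehydratase, followed by an epimerase and reductase. Fucotrim II was designed as an inhibitor of GMDS. GDP-mannose is also the donor for the dolichol-linked precursors of N-glycans. Luminal prostate cells are secretory epithelium, known for androgen-driven proteases, zinc handling and export of small molecules. The genes of the cell cycle and of the unfolded protein response are not described as groups, but counts over all genes and over lists that hold some of them, such as CHAC1 among the glutathione genes and FOXM1 among the FOX factors, include them.

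The deposited values were whole-number read counts per gene. Totals were 15398797 to 17689717 counts in the DMSO libraries, and 18183854 and 19099194 in the Fucotrim II libraries. Levels are given as CPM, counts scaled to a library total of 1000000 with TMM factors, in the order DMSO 1, 2 and 3, then Fucotrim II 1 and 2. Fold changes are on the log2 scale, Fucotrim II minus DMSO, and a gene is called higher or lower where its Benjamini-Hochberg adjusted p-value from edgeR's quasi-likelihood test was under 0.05. Genes named as leading a group had a mean of at least 50 counts over the 5 libraries, unless counts are given. The p-values weigh the difference between the groups against the spread of these libraries only. That spread is pooled over both groups and moderated across genes. Measured features of the libraries moved with the treatment. The share of counts from mitochondrially encoded genes was 5.98 to 7.03% with DMSO and 17.0% and 12.2% with Fucotrim II. The fold changes tracked the base composition of the transcripts, with a Spearman correlation across 14412 genes of 0.53 with GC content and of -0.31 with transcript length. The 2 Fucotrim II libraries also differed from each other along GC content (Spearman 0.47 across the same genes), as did DMSO libraries 2 and 3 (0.36). Along transcript length the Spearman correlation was -0.26 between the Fucotrim II libraries and -0.06 to 0.08 between DMSO libraries. The Fucotrim II libraries were less alike than the DMSO libraries. The chi-square per degree of freedom between counts of paired libraries was 24.2 for Fucotrim II and 1.80 to 4.37 for DMSO. The part of these features in the results was not tested, and the counts of a second fit, with the trends over GC content and length removed from each library, are therefore given beside those of each gene group, as trend-removed counts, higher first. Counts of each group are to be read against the shares over all genes tested. Those shares were 25.6% higher and 25.7% lower, and in the trend-removed fit 20.1% and 26.7%. Several groups with more rises than falls had more falls than rises in that fit, or the reverse. In bulk RNA, fewer cells of a kind and less of a transcript per cell cannot be told apart.

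Luminal markers were present in every library. KRT8 was at 494, 449.8 and 469.7 CPM in the DMSO libraries and 611 and 781 CPM in the Fucotrim II libraries, and HOXB13 at 235, 215 and 231 CPM in the DMSO libraries and 319.6 and 397 CPM in the Fucotrim II libraries. Basal and endothelial markers were near 0, with at most 3 counts in any of the 5 libraries for KRT5, KRT14, TP63, PECAM1, VWF and CDH5. Of the leukocyte and fibroblast markers, CD68 (82 to 116 counts), COL1A1 (269 to 485) and LUM (36 to 49) were present, and PTPRC, CD3E, CD79A and COL1A2 had at most 5 counts.

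Of 27819 genes in the table, 14617 were tested and 7511 (51.4%) were differentially expressed, 3748 higher (25.6%) and 3763 lower (25.7%). The rises were larger than the falls. The median log2 fold change was 0.59 among the genes called higher and -0.45 among those called lower, and 785 genes rose by more than 1 while 262 fell by more than 1. The median over all genes tested was 0.01. For 67.7% of the genes both Fucotrim II libraries lay on the same side of all 3 DMSO libraries. In the trend-removed fit 2938 genes (20.1%) were higher and 3910 (26.7%) lower. Of the 7511 genes, 4649 were called in the same direction in both fits, 112 in opposite directions, and 2750 were not called once the trends were removed. The genes called higher had a median GC content of 57.6% and a median transcript length of 2411 bases, and those called lower 41.9% and 4394 bases.

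**Figure D1:**
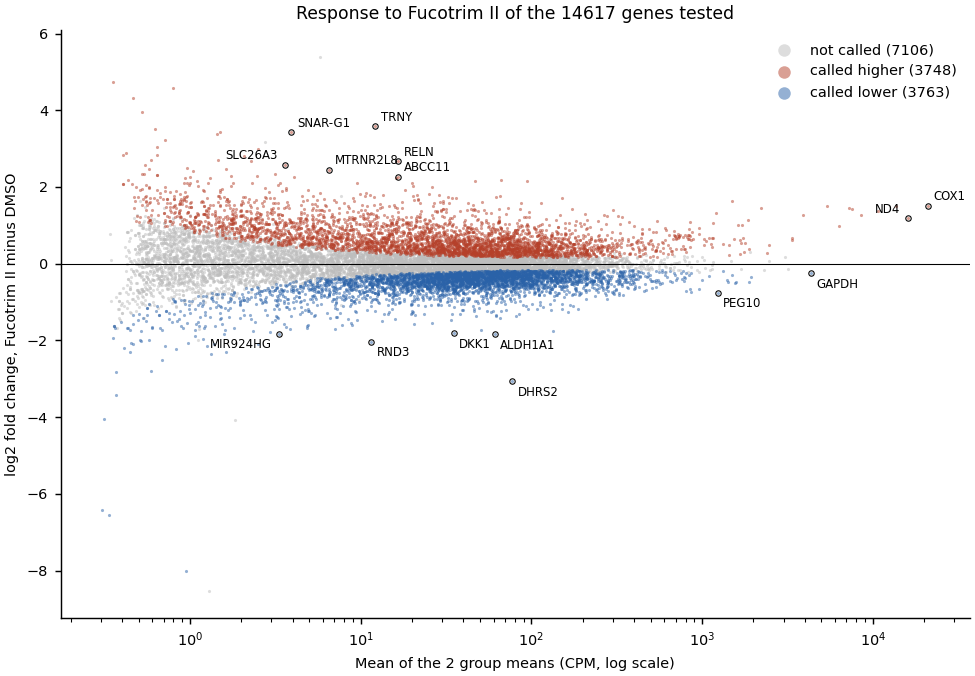
Log2 fold change (Fucotrim II minus DMSO, vertical axis) of each of the 14617 genes tested against the mean of both group means in CPM on a log axis, with genes called higher in red, called lower in blue and not called in grey. The largest rises reach beyond 3 among genes near 10 CPM and below, COX1 and ND4 of the mitochondrial genome rise at the abundant end, and DHRS2 lies lowest among the genes above 10 CPM. The 4 lowest points are genes listed at 0 in both Fucotrim II libraries.

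The largest rises among genes with at least 50 counts on average and groups of libraries that did not overlap were led by 2 short RNAs. TRNY, the mitochondrial tRNA for tyrosine, was at 0.869, 2.52 and 2.23 CPM in the DMSO libraries and 21.8 and 23.2 CPM in the Fucotrim II libraries, a log2 fold change of 3.59 (standard error 0.24). SNAR-G1, a gene of a primate family of short non-coding RNAs, was at 0.543, 0.603 and 0.867 CPM in the DMSO libraries and 6.65 and 7.71 CPM in the Fucotrim II libraries (3.42, standard error 0.23). Both are short RNAs in libraries made by poly(A) selection, and SNAR-G1 has near-identical copies between which reads could have been split, so their levels are uncertain.

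Among messenger RNAs the largest rise was that of RELN (hg38 chr7:103471381-103989658, minus strand), which encodes reelin, a secreted glycoprotein that positions neurons in the developing brain. RELN went from 4.94, 4.33 and 4.27 CPM to 30.05 and 27.4 CPM, 2.67 ± 0.11 (SE) as log2 fold change, with an adjusted p of 1.79e-06 by edgeR. SLC26A3 (chr7:107765467-107803225, minus strand), the chloride and bicarbonate exchanger of the colon, went from 1.14, 0.823 and 1.11 CPM to 6.77 and 5.6 CPM (2.59). ABCC11, an efflux pump of apocrine glands, went from 5.21, 6.42 and 5.39 CPM to 26.5 and 28.4 CPM (2.27), and S100P, a calcium-binding protein, from 23.1, 23.6 and 25 CPM to 101 and 116 CPM (2.19). In each of these genes both treated libraries were more than 3 times the highest DMSO library. CLEC11A, a secreted lectin-like growth factor, went from 6.84, 5.27 and 4.77 CPM to 22.3 and 30.6 CPM, PTGDS, the prostaglandin D2 synthase, from 1.09, 1.21 and 1.55 CPM to 6.06 and 4.94 CPM, and TPM2, a tropomyosin of actin filaments, from 1.58, 1.43 and 0.805 CPM to 5.64 and 4.99 CPM. The rest of the 15 largest rises were those of MTRNR2L8, ARMH1, TMEM238, FAR2P1, LOC728392 and SLC22A31, from 2.10 to 2.45. MTRNR2L8 is a nuclear copy of the mitochondrial 16S rRNA gene and FAR2P1 a pseudogene that shares all of its exon bases with another gene on its strand, so both are uncertain. PTGDS shares 23.4% of its exon bases in the same way. TMEM238, whose value moved most of the 15, had 2.16 against 1.21 in the trend-removed fit.

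The largest falls were led by DHRS2 (chr14:23630115-23645639, plus strand), a short-chain dehydrogenase and reductase of carbonyl compounds. It went from 130.03, 139 and 144 CPM to 13.8 and 19 CPM, -3.07 ± 0.12 (SE) as log2 fold change, with an adjusted p of 1.79e-06 by edgeR. RND3, an atypical small GTPase that opposes stress fibre formation, went from 19.3, 19.4 and 17 CPM to 4.93 and 4.1 CPM (-2.04). ALDH1A1, which oxidises retinaldehyde to retinoic acid, went from 97.9, 94.5 and 92.5 CPM to 31.2 and 22.1 CPM (-1.84). Genes of secreted signalling and adhesion proteins were among those that followed. DKK1, a secreted antagonist of WNT signalling, went from 57.3, 49.8 and 57.2 CPM to 16.5 and 14.7 CPM (-1.81), IGFBP3, a carrier of insulin-like growth factors, from 210.0, 191 and 217 CPM to 64.2 and 58.8 CPM (-1.74), and CDH2, N-cadherin, from 5.21, 5.1 and 6.32 CPM to 2.38 and 1.16 CPM (-1.65). The treated libraries of CDH2 were further apart than those of DKK1 and IGFBP3, but both lay below every DMSO library.

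JAKMIP2 (-1.78), CAMK4 (-1.70), a calcium and calmodulin dependent kinase, SPTSSB (-1.68), a small subunit of serine palmitoyltransferase, MID1 (-1.63), a microtubule-bound ubiquitin ligase, ITGA1 (-1.60), a collagen receptor subunit, MEF2C (-1.59), a transcription factor, and SLC16A7 (-1.59), a monocarboxylate carrier, completed the protein-coding part of the 15. MIR924HG (-1.83) and LINC00673 (-1.70) were its non-coding members. In the trend-removed fit the log2 fold changes of the 15 lay between -3.31 for DHRS2 and -1.11 for SLC16A7, and all 15 were called lower there as well.

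**Figure D2:**
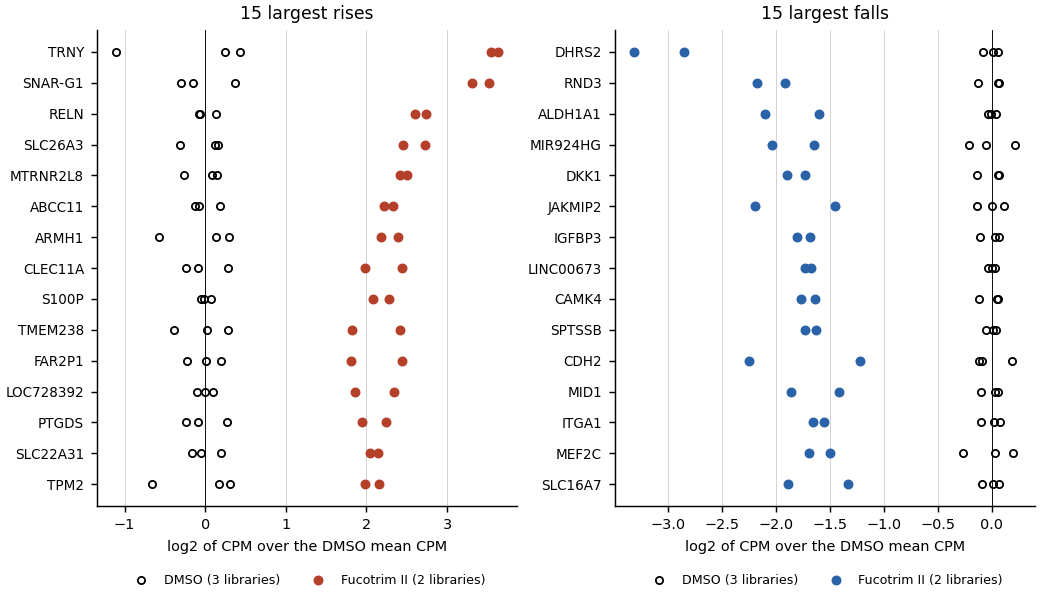
Log2 of the CPM of each library over the mean CPM of the DMSO libraries (horizontal axis) for the 15 largest rises (left) and the 15 largest falls (right), with DMSO libraries as open circles and Fucotrim II libraries as filled circles. The filled circles lie apart from the open ones in all 30 genes, and those of CDH2, from 2.38 and 1.16 CPM, are spread widely among the falls.

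The 6 genes that gained most in CPM were all mitochondrially encoded. COX1, a subunit of cytochrome c oxidase, went from 10610, 12044 and 10270 CPM to 37850 and 24790 CPM, and ND4, of complex I, from 9207, 11105 and 9088 CPM to 26270 and 18085 CPM. COX2, RNR2, COX3 and ND5 were the others, of which COX3 changed least (1.26). All 13 mitochondrial mRNA genes were called higher (median 1.43), as were the 7 tested mitochondrial tRNA genes (median 2.89). The nuclear genes of the same complexes gave both directions. Of 78 nuclear genes for respiratory chain subunits 25 were higher and 18 lower (median 0.07), with 12 and 34 in the trend-removed fit. Mitochondrial ribosomal proteins had 9 of 75 higher and 23 lower (median -0.06), with 3 and 45 in the trend-removed fit. The largest losses in CPM were those of GAPDH (from 4728, 4696 and 4717 CPM to 3640 and 4321 CPM), the glycolytic enzyme, PEG10 (from 1552, 1578 and 1517 CPM to 944 and 891 CPM), an imprinted retrotransposon-derived gene, the chaperones HSPA8, HSP90AA1 and HSPD1 (log2 fold changes of -0.48, -0.50 and -0.48), and HNRNPA2B1 (-0.49), an RNA-binding protein. Without removal of trends, the fall of GAPDH was the smallest of these on the log2 scale, at -0.24 (adjusted p 0.0467 by edgeR). That fall did not pass without any 1 of the DMSO libraries (-0.25), and was -0.12 without Fucotrim II library 1. In the trend-removed fit GAPDH was called lower at -0.57, beyond HSPA8 (-0.48), HSP90AA1 (-0.33), HSPD1 (-0.36) and HNRNPA2B1 (-0.21), and PEG10 was at -0.96.

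A larger share of long non-coding than of protein-coding genes was called higher, and a smaller share lower. Of 873 long non-coding RNA genes tested, 272 were higher and 50 lower, with a median log2 fold change of 0.28, against 3353 higher and 3673 lower of 13237 protein-coding genes (median -0.01). Of the long non-coding genes 503 had a mean under 50 counts. Among genes at or above that mean 156 of 370 long non-coding genes were higher and 35 lower (median 0.27), against 2998 and 3530 of 11418 protein-coding genes (median -0.03). In the trend-removed fit 216 long non-coding genes were higher and 83 lower (median 0.18). Genes of the LINC series had 49 of 148 higher and 13 lower (median 0.25, and 41 and 20 trend-removed), antisense genes 99 of 368 and 15 (median 0.28, and 72 and 35 trend-removed), and divergent transcripts 27 of 109 and 5 (median 0.16, and 20 and 11 trend-removed). Antisense genes and divergent transcripts were called higher at 26.9% and 24.8%, near the 25.6% over all genes. Their shares called lower, 4.08% and 4.59%, were below the 25.7% over all genes. Small stable RNA genes, snoRNAs among them, had 16 higher and 2 lower of 105, and 6 and 7 in the trend-removed fit. MicroRNA host genes had 8 of 16 higher and 3 lower (7 and 4 trend-removed).

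Beyond the RNAs named above, the largest non-coding rises were those of SNHG19 (1.92), COPG2IT1 (1.89), TRNC (1.85), a mitochondrial tRNA, and LINC01503 (1.75). FAM13A-AS1 (2.17, 2.3 and 2.23 CPM with DMSO and 8.2 and 5.71 CPM with Fucotrim II) and MELTF-AS1 (3.64, 3.95 and 4.46 CPM with DMSO and 12.2 and 11.6 CPM with Fucotrim II) led the antisense genes. MELTF-AS1 shares 44.9% of its exon bases with a gene on the opposite strand, and since the strand setting of the counting is not given in the sources used here, reads of both partners cannot be told apart. Among long-known nuclear RNAs NEAT1, the scaffold of paraspeckles, went from 218, 254 and 239 CPM to 593 and 421 CPM, MALAT1, a speckle RNA, from 238, 234 and 181 CPM to 547 and 348 CPM, and PVT1, the neighbour of MYC, from 7.44, 7.19 and 6.44 CPM to 16.2 and 14.4 CPM. NEAT1 and MALAT1 were higher in Fucotrim II library 1, the library with more mitochondrial counts, than in library 2. Without library 1 the log2 fold change of MALAT1 went from 1.04 to 0.68 and did not pass the test. MALAT1 shares 83.7% of its exon bases with a gene on the opposite strand. DRAIC, a long non-coding RNA of prostate cells, fell (from 7.5, 5.7 and 6.63 CPM to 3.86 and 4.16 CPM), and across this list of well-known RNAs 6 of 19 were higher and 3 lower (6 and 3 trend-removed), and without Fucotrim II library 1 the number higher was 3.

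MIR924HG, a microRNA host gene on chromosome 18, and LINC00673 were the largest non-coding falls. MIR924HG went from 5.05, 6.09 and 4.52 CPM to 1.66 and 1.28 CPM and LINC00673 from 10.6, 10.9 and 11.1 CPM to 3.39 and 3.27 CPM. They were followed by LOC730101 (-0.98), AHCTF1P1 (-0.93), OTUD6B-AS1 (-0.92), DLEU2 (-0.86), FAM66C (-0.86) and LINC00654 (-0.86), so that apart from the leading pair no non-coding fall with at least 50 counts reached a log2 fold change of -1.

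A set of 4 genes was at or near 0 with DMSO and present with Fucotrim II, with at most 3 counts in each DMSO library and at least 15 in each Fucotrim II library. ABCC12 had 0, 3 and 0 counts with DMSO and 29 and 24 with Fucotrim II. A2MP1, a pseudogene of alpha-2-macroglobulin, had 2, 3 and 2 against 22 and 18 counts, LINC01512 1, 2 and 2 against 18 and 22, and LINC00685 3, 3 and 3 against 18 and 16. No gene showed the reverse at these limits. ABCC12 (chr16:48080882-48156018, minus strand) lies next to ABCC11 (chr16:48165773-48247568, minus strand) in the same orientation, and both members of this tandem pair of ABC transporters rose. Neighbouring genes had log2 fold changes of -0.25 for LONP2 and 0.43 for SIAH1.

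The host genes of small nucleolar RNAs changed in 1 direction. Of 25 tested, 18 were higher and 0 lower (median 0.68), and 16 were called higher in the trend-removed fit. These genes carry snoRNAs in their introns, and the spliced transcripts of many are degraded by nonsense-mediated decay when ribosomes engage them. SNHG8 (chr4:118278703-118285316, plus strand) went from 71.9, 70.5 and 71.8 CPM to 232 and 233 CPM (1.70 ± 0.06 as log2 fold change and SE, adjusted p by edgeR 1.72e-06). SNHG19 (chr16:2154792-2155405, minus strand) went from 6.9, 8.12 and 7.93 CPM to 25.9 and 32 CPM (1.92), EPB41L4A-AS1 from 16.8, 13.4 and 16.7 CPM to 39.8 and 41.4 CPM (1.38), GAS5 from 136, 153 and 148 CPM to 267 and 280.5 CPM (0.91) and ZFAS1 from 45.2, 47.3 and 45 CPM to 87.3 and 88.1 CPM (0.94). SNHG8, EPB41L4A-AS1 and ZFAS1 share 37.6%, 51.2% and 36.4% of their exon bases with a gene on the opposite strand. SNHG1 was not called, at 56.9, 75.3 and 65.8 CPM with DMSO and 81.9 and 59.1 CPM with Fucotrim II, where the groups overlap. Nonsense-mediated decay factors had 0 of 15 higher and 9 lower (median -0.26, with 0 and 10 in the trend-removed fit). Among those lower was CASC3 (from 148, 151 and 151 CPM to 112 and 109 CPM), a part of the exon junction complex. Whether the decay factors bear on the levels of the host genes was not tested.

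Cytosolic ribosomal proteins rose with the host genes. 76 of 83 were higher and 2 lower (median 0.63), and in the trend-removed fit 65 were higher (median 0.39). RPL28 went from 535, 545 and 548 CPM to 1047 and 1263 CPM (1.09), RPL13A from 1160, 1118 and 1149 CPM to 2105 and 2494 CPM (1.01), RPS19 from 561, 589 and 599 CPM to 1002 and 1186 CPM (0.91) and RPS6 from 903, 884 and 867 CPM to 1337 and 1466 CPM (0.66). The exceptions that fell were RPL7L1 and RPL22L1 (-0.41 and -0.22), paralogs of ribosomal proteins rather than the canonical subunits. RPL22L1 was not called in the trend-removed fit or without any 1 of the DMSO libraries. Messenger RNAs of ribosomal proteins, and several snoRNA host genes, are known to begin with a C followed by a run of pyrimidines, the 5′ terminal oligopyrimidine tract, through which their translation answers to growth signals. The starts listed by RefSeq (GRCh38.p14) are shown for members of both groups and for the translation factor EEF2, from 10 bases before the start to 20 bases from it on, with the first tract of a C and at least 5 further pyrimidines that begins within 5 bases of the start in capitals.
RPL28 (chr19:55385922-55385951, plus strand): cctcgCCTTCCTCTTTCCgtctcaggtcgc
RPL13A (chr19:49487598-49487627, plus strand): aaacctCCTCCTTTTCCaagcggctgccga
RPS19 (chr19:41860245-41860274, plus strand): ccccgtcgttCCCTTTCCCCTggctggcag
RPS6 (chr9:19380217-19380246, minus strand): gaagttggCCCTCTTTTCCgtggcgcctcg
EEF2 (chr19:3985444-3985473, minus strand): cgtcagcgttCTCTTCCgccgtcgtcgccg
SNHG19 (chr16:2155339-2155368, minus strand): ccgcccctgtCTTTTCggggtcgagtccga
SNHG8 (chr4:118278752-118278781, plus strand): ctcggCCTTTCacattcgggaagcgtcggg
ZFAS1 (chr20:49278632-49278661, plus strand): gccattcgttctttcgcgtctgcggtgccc
Such a tract was found in 53 of the 66 ribosomal protein genes with a listed start (80.3%), in 6 of 22 snoRNA host genes (27.3%), in 15 of 55 translation factors (27.3%) and in 1850 of all 11526 tested genes with a start (16.1%). ZFAS1 shows a shorter run of pyrimidines and so no capitals. Outside the ribosomal proteins, 465 of 1797 genes with a tract were higher and 476 lower (median 0.00), against 2334 and 2633 of 9676 genes without it (median -0.01).

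Among other parts of the translation and RNA machinery, translation factors had 20 of 72 higher and 23 lower (median -0.07), with 20 and 27 trend-removed. The shares without removal of trends, 27.8% and 31.9%, lie near those over all genes (25.6% and 25.7%). EEF2, the translocation factor of elongation, rose (from 2731, 2456 and 2603 CPM to 3795 and 4510 CPM), whereas EIF5, which triggers GTP hydrolysis at the start codon, fell (from 245, 246 and 238 CPM to 139 and 138 CPM), as did EIF2AK2, the double-stranded RNA kinase PKR (from 33.1, 29.4 and 28.4 CPM to 17.3 and 15.2 CPM). Ribosome biogenesis factors had 8 of 50 higher and 23 lower, and 1 and 28 in the trend-removed fit, with DDX21, a nucleolar helicase, going from 348, 331 and 329.5 CPM to 216 and 206 CPM. Aminoacyl-tRNA synthetases had 3 of 33 higher and 17 lower (median -0.18, and 1 and 20 trend-removed). TARS1, the cytosolic threonyl enzyme, went from 199, 194 and 190.1 CPM to 121 and 115 CPM. Splicing and hnRNP factors had 7 of 102 higher and 47 lower (median -0.21), and 13 and 48 in the trend-removed fit. HNRNPU, a chromatin-associated hnRNP, went from 1112, 1045 and 1072 CPM to 657 and 634 CPM, PRPF38A, of the B complex of the spliceosome, from 73.5, 73.1 and 69.9 CPM to 38.9 and 36.7 CPM, and SF3B3, of the U2 particle, from 299, 299 and 290.2 CPM to 174 and 192 CPM. For these 3 genes the DMSO values lay close together, and both treated libraries were below all of them.

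Carriers and channels changed in both directions, with more rises than falls. Of 276 solute carrier genes 94 were higher and 57 lower (median 0.13), with 74 and 56 in the trend-removed fit. Grouped by substrate, organic ion and drug carriers had few falls, with 18 of 36 higher and 2 lower (median 0.43) and 14 and 2 in the trend-removed fit. SLC22A31, a putative organic ion carrier, went from 3.48, 3.24 and 4.15 CPM to 16 and 14.9 CPM (2.10). SLC22A17, a receptor for lipocalin, went from 6.08, 6.2 and 6.13 CPM to 18.2 and 17.6 CPM (1.54), and SLC47A2, a proton-coupled exporter of organic cations, from 17.2, 19.1 and 17 CPM to 43.6 and 40.8 CPM (1.25). SLCO5A1, of the organic anion family, was the member that fell most (from 16.9, 14.9 and 18.5 CPM to 9.86 and 6.82 CPM).

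Amino acid carriers had 9 of 30 higher and 7 lower (7 and 7 trend-removed), near the shares over all genes. The chains of the cystine and glutamate exchanger moved apart. SLC7A11, the light chain that binds cystine, fell from 117, 120.3 and 114 CPM to 50.5 and 41.4 CPM (-1.35, standard error 0.09), and SLC3A2, the heavy chain that it shares with other amino acid exchangers, rose from 174, 182 and 185 CPM to 339 and 399.9 CPM (1.04, standard error 0.08). Both kept their direction and call in the trend-removed fit (-0.88 and 0.71). SLC43A1, a carrier of large neutral amino acids known from prostate cells, rose (from 14.7, 12.6 and 13.2 CPM to 29.4 and 29.4 CPM), while SLC16A10, of aromatic amino acids, and SLC1A3, of glutamate, fell (-1.04 and -0.99).

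Sugar and carboxylate carriers had 13 of 26 higher and 6 lower (8 and 5 trend-removed). SLC16A7, the high-affinity monocarboxylate carrier, had the largest fall of all carriers with at least 50 counts (from 13.5, 14 and 12.6 CPM to 5.29 and 3.6 CPM), SLC5A3, which takes up inositol, fell to a lesser degree (from 31.2, 35.2 and 32.2 CPM to 20.8 and 17.6 CPM), and SLC2A12, a glucose transporter, rose (from 32.4, 33.3 and 33.9 CPM to 63.4 and 53.8 CPM), though 51.2% of its exon bases are shared with a gene on the opposite strand. SLC2A1, the main glucose transporter, was not called, at 70.1, 68.1 and 65.5 CPM with DMSO and 61.5 and 65.2 CPM with Fucotrim II, but was lower in the trend-removed fit (-0.25). Exchangers of bicarbonate, chloride, protons and sulphate had 12 of 30 higher and 5 lower (12 and 5 trend-removed). In this group SLC26A3 had the largest rise and SLC4A8, a sodium-driven chloride and bicarbonate exchanger, the largest fall (from 7.55, 7.68 and 7.93 CPM to 3.21 and 2.77 CPM).

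Metal carriers had 6 of 31 higher and 12 lower, but 7 and 5 in the trend-removed fit. SLC39A13, a zinc carrier of the secretory pathway, rose (from 11.5, 10.2 and 11.5 CPM to 24.3 and 27 CPM). Mitochondrial carriers had 9 of 44 higher (20.5%) and 11 lower (25.0%), near the shares over all genes, and 8 and 13 trend-removed. Their largest change, that of SLC25A27 (from 10.9, 13.9 and 12.9 CPM to 33.9 and 19.9 CPM), came from treated libraries that were far apart. Nucleotide sugar carriers, which feed glycosylation in the Golgi, had 6 of 22 higher and 8 lower (3 and 5 trend-removed). SLC35C1, the GDP-fucose carrier, was not called, at 20.4, 21 and 20.1 CPM with DMSO and 20.1 and 25.3 CPM with Fucotrim II, and SLC35D1, which carries UDP-glucuronic acid and UDP-GalNAc, fell (from 30.8, 29.9 and 33.1 CPM to 18.4 and 20.9 CPM).

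ABC transporters had 13 of 32 higher and 7 lower (12 and 8 trend-removed). Besides ABCC11 and ABCC12, ABCC2, an exporter of conjugated organic anions, went from 25.3, 28.2 and 27.7 CPM to 49.2 and 37.2 CPM and ABCA5 from 13.7, 14.6 and 14.2 CPM to 28.7 and 20.7 CPM. Ion channels had 50 of 114 higher and 17 lower (median 0.39), and 33 and 17 in the trend-removed fit. AQP1, a water channel that shares 27.9% of its exon bases with another gene on its strand, went from 8.96, 9.98 and 9.54 CPM to 37.9 and 28.5 CPM (1.80), ANO9, of the anoctamin family, from 13.8, 17.9 and 17.5 CPM to 48.2 and 40.0 CPM, and LRRC8C, a subunit of volume-regulated anion channels, had a log2 fold change of -0.92. Ion pumps and their regulators had 9 of 28 higher and 8 lower (8 and 5 trend-removed), led by FXYD3 (from 94.7, 92.2 and 93.4 CPM to 234 and 270.1 CPM), a regulator of the sodium pump that shares 40.0% of its exon bases with another gene.

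**Figure D3:**
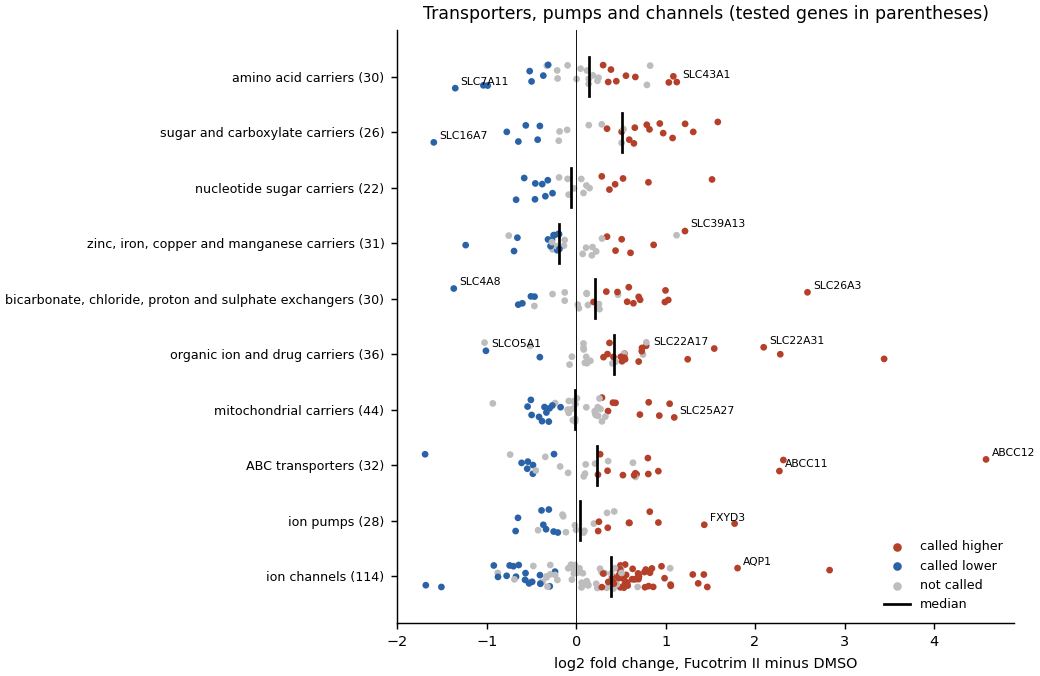
Log2 fold change (Fucotrim II minus DMSO, horizontal axis) of the tested carriers, pumps and channels of each group, 1 point per gene. Rows are the groups, with the number tested. Points are red where called higher, blue where called lower and grey where not called, and a black bar marks the group's median. Solute carriers outside these groups are not shown. SLC17A1, with 4, 1 and 8 counts with DMSO and 49 and 47 with Fucotrim II, is the unlabelled point furthest right in its row. The medians of organic ion and drug carriers (0.43) and of sugar and carboxylate carriers (0.51) lie furthest above 0, and that of metal carriers (-0.19) furthest below. In the trend-removed fit these medians were 0.16, 0.15 and 0.05.

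Differentiation markers of luminal prostate epithelium rose. Of the 11 luminal markers 10 were called higher, against 25.6% of all genes, and the same number in the trend-removed fit. TMPRSS2, an androgen-regulated serine protease of the apical membrane, went from 28.6, 29.5 and 28.4 CPM to 78.9 and 74.3 CPM (1.41, standard error 0.07). SLC45A3 (prostein) went from 36.2, 29.4 and 34 CPM to 70.6 and 68.3 CPM, KLK2 from 57.5, 59.2 and 58.5 CPM to 110.2 and 94.4 CPM and KLK3, which encodes prostate-specific antigen, from 31.9, 31.5 and 27.2 CPM to 47.6 and 43.2 CPM. HOXB13, the homeobox factor of the prostate, went from 235, 215 and 231 CPM to 319.6 and 397 CPM, FOLH1, prostate-specific membrane antigen, from 161, 167 and 159.8 CPM to 245 and 227 CPM, and STEAP2, a metalloreductase, from 226, 258 and 232 CPM to 343 and 292 CPM. KRT8 and KRT18, the keratin pair of luminal cells, had 0.56 and 0.59, which the trend-removed fit lowered to 0.19 and 0.22. KLK11, another prostate kallikrein, went from 5.05, 5.65 and 4.58 CPM to 18.9 and 16.5 CPM (1.79). The 2 Fucotrim II libraries stood above all 3 DMSO libraries for each of the 10 markers called. The number called higher was 9 without any 1 of the DMSO libraries.

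Genes of gut-like and mucous epithelium gave more rises than falls. Gut and liver lineage markers had 9 of 20 higher and 3 lower, with 10 and 6 in the trend-removed fit. SPINK1, a secreted trypsin inhibitor, went from 54.3, 54.2 and 55.1 CPM to 134 and 143 CPM (1.35), LGALS4, an intestinal galectin, from 2.23, 2.8 and 3.28 CPM to 6.65 and 5.43 CPM, MUC13 from 92.3, 80.3 and 79.5 CPM to 169 and 171 CPM, MUC5AC from 3.37, 3.51 and 3.47 CPM to 6.53 and 7.49 CPM and MUC1 from 2.06, 1.97 and 1.92 CPM to 4.57 and 3.99 CPM. Of the mucins and trefoil factors 4 of 6 were higher and 0 lower (4 and 0 trend-removed). Among transcription factors of this lineage HNF4G fell (from 20.5, 19.9 and 19.1 CPM to 12.1 and 9.65 CPM). S100 proteins had 5 of 6 higher and 0 lower (4 and 0 trend-removed), with S100A6 going from 42.3, 40.8 and 40.4 CPM to 97.8 and 104 CPM.

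Other epithelial groups gave a mixed picture. Late epithelial genes had 7 of 12 higher, among them KLF4 (from 39.9, 37.9 and 43.4 CPM to 79.9 and 75 CPM), EHF (from 116, 113 and 110.1 CPM to 177 and 161 CPM) and ELF3 (from 86.5, 88.7 and 89.9 CPM to 132 and 137 CPM), all transcription factors of differentiating epithelium, and 1 lower (6 and 2 trend-removed). Keratins had 3 of 8 higher and 0 lower (3 and 1 trend-removed). Claudins had 5 of 11 higher and 1 lower (3 and 2 trend-removed), with CLDN3 rising (0.98, and 0.29 in the trend-removed fit) and CLDN1 falling (-0.87). Epithelial junction genes had 10 of 34 higher (29.4%) and 8 lower (23.5%), near the shares over all genes. The trend-removed fit turned this into 5 and 13. GJB1, a connexin, rose (from 2.82, 3.07 and 3.22 CPM to 7.25 and 7.49 CPM). Mesenchymal transition genes had 3 of 17 higher and 5 lower (2 and 4 trend-removed), the falls being led by CDH2 and by CCN2, a matricellular protein (from 19.2, 16.3 and 23.4 CPM to 6.77 and 7.15 CPM).

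Markers of other lineages changed gene by gene. Basal markers had 1 of 7 higher, CD44 (from 74.5, 74 and 71.5 CPM to 153 and 138 CPM), a hyaluronan receptor, and 1 lower (2 and 2 trend-removed). Neuroendocrine markers had 6 of 11 higher and 1 lower (5 and 2 trend-removed), with CHGB, chromogranin B, going from 54.9, 52.1 and 52 CPM to 88.5 and 81.6 CPM and NKX2-1, a lineage factor of lung and forebrain, from 4.13, 3.46 and 3.1 CPM to 7.84 and 7.1 CPM. NKX2-1 shares 32.6% of its exon bases with another gene on its strand. The neuroendocrine marker called lower had a log2 fold change of -0.57, and -0.51 in the trend-removed fit. Across that list the fold changes ran from -0.70 to 1.06 (median 0.22). HOX genes had 11 of 28 higher and 3 lower, and 4 and 4 in the trend-removed fit. HOXA13, the most posterior gene of its cluster, fell (from 12.8, 12.6 and 13.5 CPM to 4.81 and 6.1 CPM) while HOXB13 rose.

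**Figure D4:**
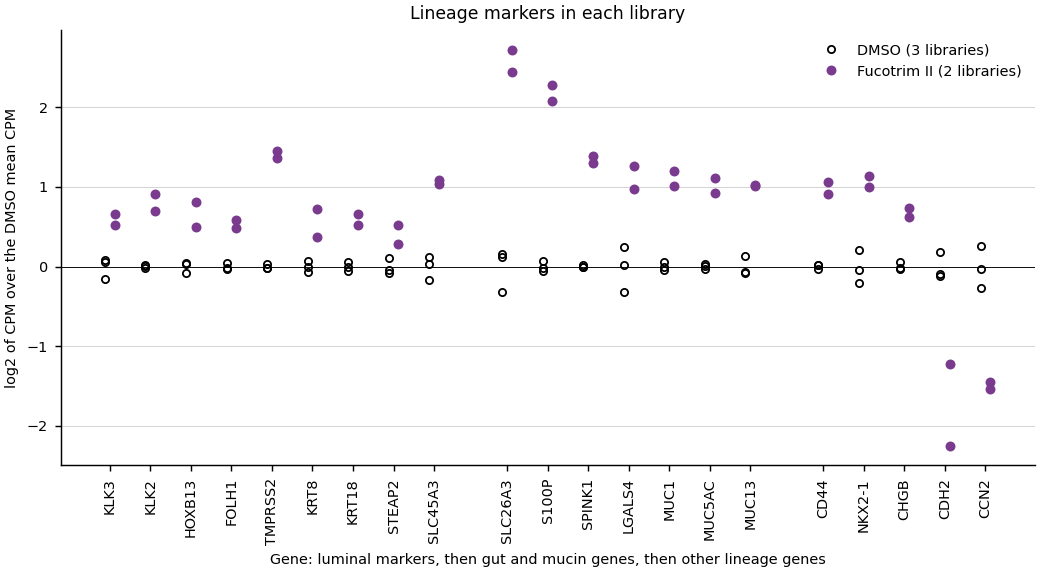
Log2 of the CPM of each library over the mean CPM of the DMSO libraries (vertical axis) for 9 luminal markers, 7 gut and mucin genes and 5 other lineage genes, with DMSO libraries as open circles and Fucotrim II libraries as filled circles. The luminal markers lie above 0 with Fucotrim II, SLC26A3 and S100P reach beyond 2, and CDH2 and CCN2 lie below -1.

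Metallothioneins, small cysteine-rich proteins that bind zinc and copper and whose genes answer to metal through the factor MTF1, had 6 of 7 tested members higher and 0 lower (median 1.41), and 6 in the trend-removed fit. MT1G went from 10.3, 10.04 and 11.1 CPM to 41.4 and 42.8 CPM (2.01, standard error 0.09), MT1X from 18.4, 16.3 and 16 CPM to 53.1 and 57 CPM (1.70), MT1E from 24.6, 25.2 and 25.3 CPM to 68.9 and 63.8 CPM (1.41) and MT2A from 109, 118 and 131 CPM to 213 and 271 CPM (1.02). The coding sequences of this family are alike, so reads could have been split between members. MTF1 itself fell (from 33.3, 35.6 and 30.5 CPM to 22.7 and 22.5 CPM). The 250 bases before the RefSeq starts of MT1X and MT2A (GRCh38.p14) are shown because promoters of this family are known to bind that factor, with matches to the core of the metal response element, TGCACNC or TGCGCNC on either strand, in capitals.
MT1X (chr16:56682220-56682469, plus strand): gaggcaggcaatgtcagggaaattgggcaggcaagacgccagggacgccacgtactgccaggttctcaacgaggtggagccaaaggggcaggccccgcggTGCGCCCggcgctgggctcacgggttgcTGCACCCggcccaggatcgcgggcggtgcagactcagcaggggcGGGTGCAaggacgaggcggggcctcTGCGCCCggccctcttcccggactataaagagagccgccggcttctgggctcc
MT2A (chr16:56608334-56608583, plus strand): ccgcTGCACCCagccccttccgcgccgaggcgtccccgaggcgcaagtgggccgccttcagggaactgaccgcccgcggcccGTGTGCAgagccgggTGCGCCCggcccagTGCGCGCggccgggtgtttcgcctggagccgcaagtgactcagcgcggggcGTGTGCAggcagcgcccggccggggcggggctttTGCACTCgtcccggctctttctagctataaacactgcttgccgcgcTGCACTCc
MT1X holds 4 matches and MT2A 7. All 3 metallothionein genes with a listed start held at least 3 matches. At least 3 were found in 345 of the 11526 tested genes with a listed start (2.99%), and of those 345 genes 97 were higher and 88 lower with Fucotrim II (median -0.01).

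Among metabolic genes, groups of oxidation, amino acid and detoxifying enzymes moved in both directions. Of the fatty acid oxidation and ketone genes 14 of 30 were higher and 4 lower (8 and 4 trend-removed). Serine, glycine and one-carbon genes had 3 of 20 higher and 10 lower (median -0.24, and 2 and 12 trend-removed). In the glycine cleavage system, GLDC, the decarboxylase, fell (from 12.2, 12.7 and 11 CPM to 4.81 and 6.6 CPM) and AMT, the aminomethyltransferase, rose (from 7.88, 10.4 and 9.29 CPM to 35.4 and 27.6 CPM), though AMT shares 62.6% of its exon bases with another gene on its strand. PSAT1, of serine synthesis, fell (from 256, 254 and 248 CPM to 159 and 157 CPM). Glutathione and cysteine genes had 9 of 25 higher and 9 lower (5 and 12 trend-removed). OPLAH, which returns oxoproline to glutamate, rose (from 58, 54.7 and 58 CPM to 166 and 177 CPM), and CHAC1, which breaks down glutathione and is also a gene of the unfolded protein response, fell (from 14.6, 12.9 and 14.6 CPM to 4.87 and 5.27 CPM), as did GCLM, the modifier subunit of the first step of glutathione synthesis (from 94.2, 97.2 and 93.9 CPM to 49.5 and 42.3 CPM), and SLC7A11.

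Glycolytic genes had 4 of 22 higher and 7 lower, with PGAM1 falling most (-0.68), and 3 and 15 in the trend-removed fit. Cholesterol genes had 9 of 25 higher and 4 lower (7 and 3 trend-removed), with log2 fold changes between -0.56 and 0.67, and fatty acid synthesis genes 10 of 27 and 6 (9 and 8 trend-removed), with ME1, malic enzyme, going from 22.7, 21.6 and 24 CPM to 11.9 and 10.9 CPM. Enzymes of the UGT, CYP, AKR, ALDH, GST and SULT families had 22 of 58 higher and 8 lower (18 and 10 trend-removed). AKR1C3, which converts weak androgens to potent ones, went from 28, 27.4 and 28.4 CPM to 62.8 and 69.4 CPM (1.24), opposite to ALDH1A1. Short-chain and retinol dehydrogenases had 14 of 31 higher and 4 lower (12 and 7 trend-removed), DHRS2 among them.

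Lysosomal genes gave mostly rises, with 27 of 40 higher and 4 lower (median 0.35), and 18 and 4 in the trend-removed fit. IDUA, the iduronidase of heparan and dermatan sulphate breakdown, went from 15.4, 13.9 and 15.7 CPM to 53.2 and 47.1 CPM (1.74), and CTSF, a cathepsin, from 38.8, 37.6 and 41.1 CPM to 98.7 and 114 CPM (1.44). Autophagy genes had 14 of 34 higher and 6 lower (12 and 2 trend-removed). Enzymes of GDP-mannose and GDP-fucose metabolism had 12 of 32 higher and 7 lower (median 0.07, and 8 and 9 trend-removed). The largest change among them was that of DPM3, the tether of dolichol-phosphate-mannose synthase, which consumes GDP-mannose. DPM3 went from 26.5, 27.3 and 32.4 CPM to 87.2 and 103 CPM (1.73, and 1.11 in the trend-removed fit). PMM1, a phosphomannomutase, had 0.78, and FCSK, the fucokinase of the salvage route, 0.60. GMDS, the enzyme that Fucotrim II was built to block, was not called, at 16.3, 16.4 and 15.3 CPM with DMSO and 12.5 and 16.9 CPM with Fucotrim II, where the groups overlap. Its log2 fold change of -0.12 became -0.37 and passed the test without Fucotrim II library 2, was -0.38 and passed in the trend-removed fit, and was 0.083 without library 1.

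Among regulators, Notch pathway genes had 10 of 24 higher and 3 lower (median 0.38), and 10 and 4 in the trend-removed fit. LFNG, a glycosyltransferase that extends O-linked fucose on Notch receptors, went from 5.43, 5.54 and 7.25 CPM to 11.9 and 13.5 CPM, the ligand gene JAG2 from 66.1, 59.6 and 69.4 CPM to 127 and 128 CPM, and the target-family genes HES4 and HES6 from 93.9, 73.4 and 92.5 CPM to 169 and 212 CPM and from 13.1, 10.3 and 12.2 CPM to 24.5 and 25 CPM. HES4, with a log2 fold change of 1.14, had 0.28 in the trend-removed fit. NOTCH1 was not called (75.7, 70.1 and 79.6 CPM with DMSO and 71.9 and 72.1 CPM with Fucotrim II), but was lower in the trend-removed fit (-0.33). Genes of MAPK feedback, such as dual-specificity phosphatases and the ETS factors that follow ERK activity, had 3 of 21 higher and 9 lower (3 and 12 trend-removed), with falls of ETV1 (from 33.1, 34.2 and 32.8 CPM to 14.2 and 12.8 CPM), PHLDA1 (from 14.4, 15.4 and 16.2 CPM to 7.6 and 8.6 CPM) and ETV4 (from 34.2, 32.6 and 33.5 CPM to 17.3 and 18.3 CPM). Growth factor receptors had 8 of 25 higher and 3 lower (7 and 7 trend-removed), with IGF1R rising (from 11.2, 11.4 and 10.8 CPM to 39 and 28.2 CPM, 1.59) as its ligands' carrier IGFBP3 fell, and MET, the receptor of hepatocyte growth factor, falling (from 32.9, 30.9 and 31.3 CPM to 18.5 and 19.9 CPM). WNT pathway genes had 5 of 34 higher and 7 lower (2 and 7 trend-removed), and none but DKK1 with at least 50 counts passed 1 in size. TGF-beta and BMP genes had 11 of 55 higher and 18 lower (10 and 14 trend-removed), with SMAD9 going from 54.4, 55.5 and 53.6 CPM to 27.4 and 25.6 CPM.

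Transcription factor families moved in both directions. C2H2 zinc finger genes had 82 of 497 higher and 123 lower, which became 103 and 95 in the trend-removed fit. KLF and SP factors had 7 of 20 and 7 (7 and 6 trend-removed), with KLF9, a glucocorticoid and circadian target, going from 21.6, 22.7 and 19.1 CPM to 44.4 and 44.1 CPM. FOX factors had 10 of 29 and 3 (5 and 6 trend-removed), led by FOXD4 (from 44.7, 41.4 and 43.8 CPM to 133 and 128 CPM), which has near-identical copies, so its level is uncertain. Nuclear receptors had 12 of 34 and 7 (9 and 7 trend-removed), clock genes 6 of 17 and 2 (5 and 2 trend-removed), immediate early genes 12 of 29 and 8 (10 and 12 trend-removed), and histone genes 8 of 29 and 4 (5 and 9 trend-removed). p53 targets had 9 of 24 higher and 3 lower (9 and 6 trend-removed), and BCL2 family genes 7 of 18 and 6 (5 and 7 trend-removed). BBC3 (PUMA), which promotes apoptosis, went from 39, 29.7 and 38.7 CPM to 68.5 and 81.6 CPM. BCL2, which opposes apoptosis, went from 10.3, 9 and 10.1 CPM to 5.23 and 5.49 CPM. The log2 fold changes of BBC3 and BCL2, 1.07 and -0.87, were 0.42 and -0.67 in the trend-removed fit. Interferon-stimulated genes had 12 of 27 higher and 3 lower (8 and 3 trend-removed), cytokines and chemokines 2 of 16 and 1 (1 and 3 trend-removed), and complement and coagulation genes 7 of 21 and 4 (6 and 2 trend-removed), led by HPX, hemopexin (from 9.23, 12.5 and 11.6 CPM to 46.1 and 31.9 CPM).

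Among genes of cell shape and surface, laminins, integrins and collagens had 14 of 57 higher and 13 lower (11 and 11 trend-removed), near the shares over all genes. LAMA5, a laminin chain of basement membranes, rose (from 167, 155 and 173 CPM to 423 and 445 CPM, 1.40), and so did COL7A1, of anchoring fibrils (from 50.6, 58.2 and 57.8 CPM to 155 and 105 CPM), while the integrin genes ITGA1 and ITGA4 fell (from 11.8, 12.3 and 10.9 CPM to 3.98 and 3.72 CPM and from 6.14, 8.17 and 7.56 CPM to 3.56 and 2.38 CPM). Cadherins and protocadherins had 19 of 78 higher and 20 lower (14 and 15 trend-removed), again near those shares. PCDH9 fell (from 5.16, 5.43 and 5.33 CPM to 1.48 and 2.05 CPM), and the rise of CDHR1 (from 0.978, 1.65 and 1.8 CPM to 9.44 and 2.27 CPM) rested on Fucotrim II library 1. Without that library the log2 fold change of CDHR1 was 0.64 rather than 1.98 and did not pass the test. Actin cytoskeleton genes had 8 of 38 higher (21.1%) and 10 lower (26.3%), near the shares over all genes, and 4 and 18 in the trend-removed fit. TPM2 rose and MYL9, a myosin light chain, fell (from 7.71, 7.51 and 8.48 CPM to 2.91 and 4.71 CPM). Tubulins had 8 of 19 and 5 (5 and 7 trend-removed), RAB GTPases 12 of 56 and 19 (13 and 16 trend-removed), and cilium and axoneme genes 32 of 143 and 29 (36 and 26 trend-removed). Shares of the cilium genes without removal of trends, 22.4% and 20.3%, lay near those over all genes. CFAP69, of cilia and flagella, went from 14.4, 15.5 and 14.8 CPM to 53 and 39 CPM. Tetraspanins had 8 of 23 higher and 0 lower (8 and 3 trend-removed), led by TSPAN1 (from 45.2, 45.4 and 47.9 CPM to 113 and 137 CPM), and serpins, cathepsins, kallikreins and metalloproteases 27 of 63 and 12 (17 and 12 trend-removed).

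**Figure D5:**
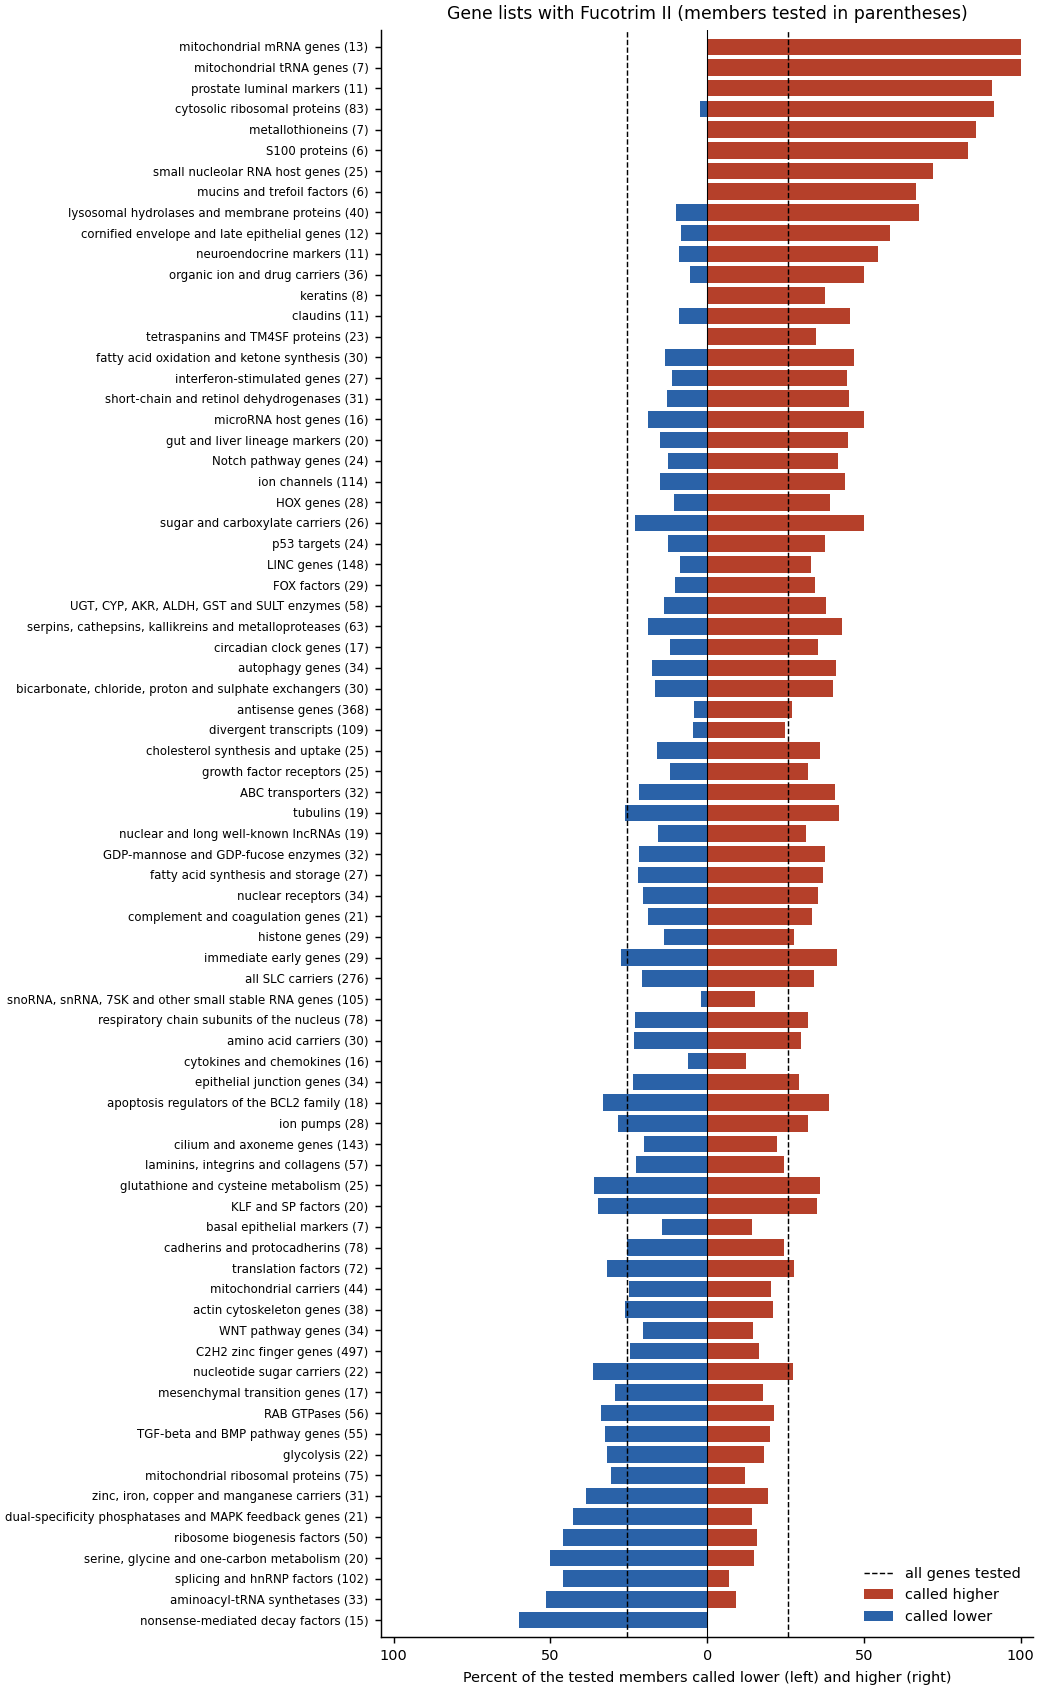
Percent of the tested members of each gene list called higher (red, right) and lower (blue, left) with Fucotrim II, ordered by the difference, with dashed lines at the shares over all genes tested (25.6% higher and 25.7% lower). Mitochondrially encoded genes, luminal markers, ribosomal proteins, metallothioneins, S100 proteins and snoRNA host genes stand at the top, and decay factors, aminoacyl-tRNA synthetases, splicing factors, one-carbon genes, ribosome biogenesis factors and MAPK feedback genes at the bottom.

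The leading genes are set beside their fold changes with the other inhibitors, which were given at other doses (30 μM Fucotrim I, 100 μM SGN-2FF and 2 μM P-SiaFNEtoc, 72 h each) and were compared with the same DMSO libraries, so no test was made between them. RELN, at 2.67 with Fucotrim II, had log2 fold changes of 1.35 with Fucotrim I, 0.50 with SGN-2FF and 0.31 with P-SiaFNEtoc. SLC26A3 had 2.81, 1.63 and 0.28 in the same order against 2.59 with Fucotrim II, and DHRS2 -2.39, -1.05 and -0.73 against -3.07. For RND3 the values were -1.45, -0.92 and -0.19 against -2.04, and for DKK1 -1.45, -0.04 and 0.26 against -1.81. IGFBP3 had -1.32, -0.81 and 0.15 against -1.74, and CCN2 -1.01, 0.53 and 0.57 against -1.49. SNHG8 had 0.69, 0.30 and 0.17 against 1.70, IDUA 1.10, 0.19 and -0.05 against 1.74, and SLC22A17 0.79, -0.15 and -0.02 against 1.54. KLK3, in contrast, had 1.15, 1.32 and 0.59 against 0.59 with Fucotrim II. Among groups, the median of the ribosomal proteins was 0.26, 0.11 and -0.01 against 0.63, that of the snoRNA host genes 0.27, 0.15 and 0.05 against 0.68, that of the metallothioneins 0.82, 1.21 and 0.32 against 1.41, and that of the cholesterol genes -0.40, -0.14 and 0.01 against 0.14. Medians of differentiation lists were not all largest with Fucotrim II. Luminal markers had 0.57, 0.48 and 0.21 against 0.59. Late epithelial genes had 0.53, 0.33 and 0.36 against 0.48. Keratins had 0.51, 0.53 and 0.59 against 0.40, and gut and liver markers 0.31, 0.45 and 0.58 against 0.36. S100 proteins had 0.44, 0.49 and 0.41 against 0.72, and mucins and trefoil factors 0.48, 0.38 and 0.51 against 1.06.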

How the data were processed

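Poly(A)-selected RNA of CWR22RV1 cells was sequenced by the study, and the authors deposited whole-number counts per gene for each library, with reads aligned to hg38 and counted by featureCounts per the submitters' processing notes, which also name FastQC and limma. The annotation release and strand setting are not given in the sources used here. The 3 DMSO columns were identical in the 4 deposited tables, each of which also holds 1 inhibitor. Groups were taken from the labels.

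Counts were filtered with filterByExpr (minimum count 10, minimum total 15), scaled by TMM and tested with edgeR's quasi-likelihood test (edgeR 4.0.16, R 4.3.3) on the 2 Fucotrim II and 3 DMSO libraries, with Benjamini-Hochberg adjustment over the 14617 genes tested. CPM were computed from the counts after scaling. In the trend-removed fit natural splines of GC content and transcript length (5 degrees of freedom each) were fitted per library and used as offsets. It was added after the data were seen. Coordinates and biotypes came from GENCODE, start and promoter sequences from RefSeq (GRCh38.p14), and 14609 gene IDs had a RefSeq entry. DESeq2 (1.42.0) and limma-voom (3.58.1) were alternatives. The code was tested on simulated data.

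Genes were named by rule. Among genes that passed the test, averaged 50 counts or more and did not overlap between groups, the rule took the 15 largest rises and falls, the 6 largest gains and losses in CPM, the 8 largest rises and falls among non-coding genes and among SLC and ABC transporters, and up to 4 members of each gene list. Genes with at most 3 counts in every DMSO library and at least 15 in both Fucotrim II libraries, or the reverse, and the luminal markers were added. GAS5, GMDS, HNF4G, LONP2, MTF1, NOTCH1, RPL22L1, RPL7L1, RPS19, RPS6, SIAH1, SLC17A1, SLC2A1, SLC35C1, SNHG1 and ZFAS1 fall outside it and were chosen after their values were seen. The treatment comparison, the lists and the rule were chosen with earlier results of these data known. Some genes that the rule names are not reported here.

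The labels of both groups share replicate numbers, and the library names carry other numbers. The labels do not say whether either marks a shared culture or day. For the same numbers in the titles, the correlation of deviations from the group means was -0.23 and -0.32. For those in the library names it was 0.32 and 0.11. The deviations of the 2 Fucotrim II libraries from their own mean are opposite by construction. These values are therefore not independent and cannot decide whether either numbering pairs the libraries. Neither numbering was used as a pairing in the fit reported above.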

Additional observations from a re-analysis of the deposited data

How the results depend on the processing

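The number of genes called, 7511 (3748 higher and 3763 lower), lay between 6389 and 8437 with DESeq2 size factors, the DESeq2 test, limma-voom, low counts left in, genes limited to 10 counts or more per library, mitochondrially encoded genes left out, all 14 libraries in one fit and the GC and length trends removed. Leaving out 1 library at a time gave 5916 to 8271 genes called, 2907 to 4096 higher and 2975 to 4175 lower. An adjusted p under 0.01 gave 5204, and adding a log2 fold change beyond 0.58 gave 3041 (1921 higher and 1120 lower), by its stricter limit.

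The libraries share only numbers. With a replicate block on the numbers of the titles 5300 genes were called, 2796 higher and 2504 lower, and with a replicate block on those of the library names 7779. Each block leaves fewer degrees of freedom.

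Of the 169 genes named with values, 157 kept their direction and side of the threshold under all 15 further fits. The fall of GAPDH did not pass in 8 of them, that of RPL22L1 in 5, and the changes of FAM66C in 4, of CDHR1, LONP2 and SIAH1 in 3 each and of MALAT1 in 1. The cause was not tested. Of the genes not called, NOTCH1, SLC2A1 and GMDS were lower with the trends removed (-0.33, -0.25 and -0.38), and SLC35C1 was higher without Fucotrim II library 1 (0.31). The sign changed only for genes that were not called in the first place, in these fits. With the trends removed SLC35C1 was at -0.16. SNHG1 was at -0.013 with the block on the library names. Leaving out 1 library at a time put GMDS between -0.37 and 0.083, SLC35C1 between -0.041 and 0.31 and SNHG1 between -0.16 and 0.30.

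Of the 154 counts of list members called higher or lower, 12 to 29 moved by more than 1.5 times when 1 library was left out, 49 with the trends removed and 17 with the DESeq2 test. Without Fucotrim II library 1, 23 rather than 9 mitochondrial ribosomal protein genes were higher. Without DMSO library 1, 2 or 3, 3 to 4 splicing and hnRNP factors were higher, against 7 in the full set, and without Fucotrim II library 2, 15. With 2 treated libraries, the spread between treated libraries is poorly known, so small changes are uncertain whether called or not. Genes that failed the filter on low counts were not tested.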

Other observations

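A group of 12 genes, picked after their values were seen, was listed at 0 in both Fucotrim II libraries with at least 20 counts summed over the DMSO libraries. Of these, 5 lie in 1 stretch of chromosome 17 (hg38). MLLT6 (chr17:38705273-38729795) had 15, 6 and 14 counts with DMSO, PCGF2 (chr17:38733898-38749817) 126, 15 and 2, PSMB3 (chr17:38752741-38764225) 14, 4 and 4, PIP4K2B (chr17:38765691-38800126) 13, 10 and 71, and CWC25 (chr17:38800441-38825355) 0, 14 and 7. On chromosome 16 the neighbours DNAJA3, NMRAL1 and HMOX2 (chr16:4425805-4510347 from the first to the last) had 12, 4 and 8, 19, 1 and 12, and 2, 53 and 2 counts, and NTAN1, further along the same chromosome, had 0, 0 and 21. VPS52 on chromosome 6 had 0, 35 and 0, TSEN34 on chromosome 19 had 58, 0 and 0, and C9orf129 on chromosome 9 had 117, 0 and 0. PSMB3 encodes a core subunit of the proteasome and DNAJA3 a mitochondrial co-chaperone, genes that every cell uses, so a value of 0 is given here only as listed. The sources used here do not say whether the reference or the handling of reads with several matches was the same for the DMSO and the Fucotrim II libraries, and this was not tested. The DMSO libraries of PCGF2, PIP4K2B and HMOX2 lie far apart. MLLT6, PIP4K2B and NMRAL1 are counted among the 3763 genes called lower, and those calls are uncertain.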
